A study of Homo sapiens with 8 samples.

Results

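Interferon beta, the chains of the interferon receptors and the JAK kinases that the receptors carry were examined in H1975 and HCC44, established human lung cancer cell lines labelled WT. The 10 genes were chosen by symbol, as IFNB1, IFNAR1, IFNAR2, IFNGR1, IFNGR2, IFNLR1, IL10RB, JAK1, JAK2 and TYK2, out of 61228 gene names with a read count. Cells had been kept for 96 hours with the solvent DMSO or with ACBI1, at a labelled dose of 1 mM, which is so high for a degrader that the unit may be wrong. ACBI1 is a degrader that binds SMARCA2, SMARCA4 and PBRM1, proteins of the SWI/SNF complexes that remodel chromatin, and brings them to the ubiquitin ligase of VHL. Each of the 4 groups, H1975 DMSO, H1975 ACBI1, HCC44 DMSO and HCC44 ACBI1, held 2 libraries of RNA from whole cultures. The title of the series is about lung cancer with mutated SMARCA4, immunity to tumours and STING signalling, and the comparison asks whether the genes upstream of the interferon-stimulated genes changed with ACBI1 in each line.

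Interferon beta is a secreted type I interferon whose gene is switched on when a cell senses foreign or misplaced nucleic acid. Type I interferons bind a receptor of IFNAR1 and IFNAR2, interferon gamma binds a receptor of IFNGR1 and IFNGR2, and the lambda interferons bind a receptor of IFNLR1 and IL10RB. None of the receptor chains is an enzyme, so each relies on a bound kinase: TYK2 on IFNAR1 and IL10RB, JAK1 on IFNAR2, IFNGR1 and IFNLR1, and JAK2 on IFNGR2. The kinases phosphorylate STAT proteins, which then enter the nucleus and raise the transcription of interferon-stimulated genes.

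The IFNB1 promoter is shown because IFNB1 was the only ligand among the 10 genes and had fewer reads with ACBI1 in both lines. The 250 bases before the gene's start in RefSeq, chr9:21077943-21078192 in GRCh38.p14, are given 5′ to 3′ along the minus strand, on which the gene lies. Capitals mark matches to AANNGAAA, the core bound by interferon regulatory factors, and to GGANNTTCC, a part of an NF-kB site.
IFNB1 promoter: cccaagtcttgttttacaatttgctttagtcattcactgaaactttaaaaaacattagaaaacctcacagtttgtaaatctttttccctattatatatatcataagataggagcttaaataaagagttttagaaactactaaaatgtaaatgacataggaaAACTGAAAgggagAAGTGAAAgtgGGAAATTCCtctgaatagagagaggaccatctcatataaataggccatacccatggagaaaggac
On both strands, this window held 2 matches to AANNGAAA, at -89 to -82 and at -76 to -69 from the start, and 1 match to GGANNTTCC, at -65 to -57. None of the 3 matches overlapped another. Among 35116 RefSeq promoter windows of the same length, 4.54% held 2 or more matches to AANNGAAA and 3.84% held a match to GGANNTTCC. RefSeq entries were found for 9 of the 10 genes, IFNAR2 being the other, and some genes have several starts. Of the other 8 genes, JAK1 had 1 match to AANNGAAA at 1 of its starts, IFNGR2 had 2 matches to GGANNTTCC and JAK2 had 1 at 1 of its starts. A match describes letters only and is not evidence that a factor was bound.

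Reads assigned to genes numbered 62467286 to 70455517 per library. Levels are given in CPM, read counts relative to the library's total, with library sizes scaled by edgeR's TMM factors. Groups are given as mean ± SD with n = 2. Adjusted p-values come from edgeR's two-sided quasi-likelihood test with Benjamini-Hochberg adjustment over 21307 genes, and a gene was called where the adjusted p was under 0.05. The labels do not say whether replicates were separate cultures, so the p-values measure the spread between these libraries, which may be technical. Markers of epithelium were present in both lines, with 6 of 6 above a mean of 1 CPM in every group. Their summed level was 5137 to 5393 CPM in H1975 DMSO, 2331 to 2808 in H1975 ACBI1, 940 to 980 in HCC44 DMSO and 1199 to 1658 in HCC44 ACBI1. Most of the rise in HCC44 was KRT7 (means of 441 and 936 CPM), while KRT8 fell there (217 and 151 CPM). Of 8 leukocyte markers, CD3D, CD3E and MS4A1 had no count in any library, and PTPRC had at most 5 counts in a group. The leukocyte markers summed to 16.6 to 18.6 and 11.3 to 15.9 CPM in H1975 DMSO and ACBI1, and to 3.93 to 3.99 and 1.65 to 2.34 CPM in HCC44. CSF1R and CD14 made up nearly all of these reads. The summed level of 5 fibroblast markers was 48.3 to 71.3 CPM in H1975 with DMSO and 23.5 to 29.2 CPM with ACBI1, and 72.2 to 90.5 CPM in HCC44 with DMSO and 204 to 408 CPM with ACBI1. Most of it was COL1A1; in HCC44 COL1A1 and LUM rose and COL1A2 fell, and DCN had no count in any library. The 4 endothelial markers summed to 0.947 to 1.46 CPM with DMSO and 0.625 to 0.778 CPM with ACBI1 in H1975, and to 3.34 to 4.01 CPM and 1.04 to 1.13 CPM in HCC44, where PECAM1 and CDH5 fell. The 5 lung epithelium markers summed to 26.5 to 29.5 CPM and 20.2 to 27.0 CPM in H1975, and to at most 0.541 CPM in HCC44, with SFTPA1 at 0 in every library. The part of these marker shifts in the results below was not tested, and in whole cultures fewer cells of a type and less RNA per cell cannot be told apart.

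All 10 genes passed the filter on low counts, IFNB1 only through HCC44 DMSO, the group where it was highest. The ligand had fewer reads with ACBI1 in both lines, most receptor chains rose in HCC44 and 1 kinase fell in H1975. In H1975, 3 of the 10 were called, all lower: IFNB1, IFNGR1 and JAK1. Over all tested genes 31.3% were called in H1975, 16.7% as lower and 14.6% as higher, so the share of the 10 was near the background. In HCC44, 6 of the 10 were called, 2 lower (IFNB1 and IFNGR1) and 4 higher (IFNAR2, IFNGR2, IFNLR1 and IL10RB). The HCC44 background was 34.9%, with 17.4% called lower and 17.5% higher. Groups of 2 libraries often fail to overlap: over all tested genes both ACBI1 libraries lay above both DMSO libraries for 33.1% in H1975 and 34.1% in HCC44, and below them for 34.2% and 32.7%. The median log2 fold change of the 10 genes was -0.07 in H1975 and 0.22 in HCC44, against -0.014 and 0.0060 over all tested genes.

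**Figure D1:**
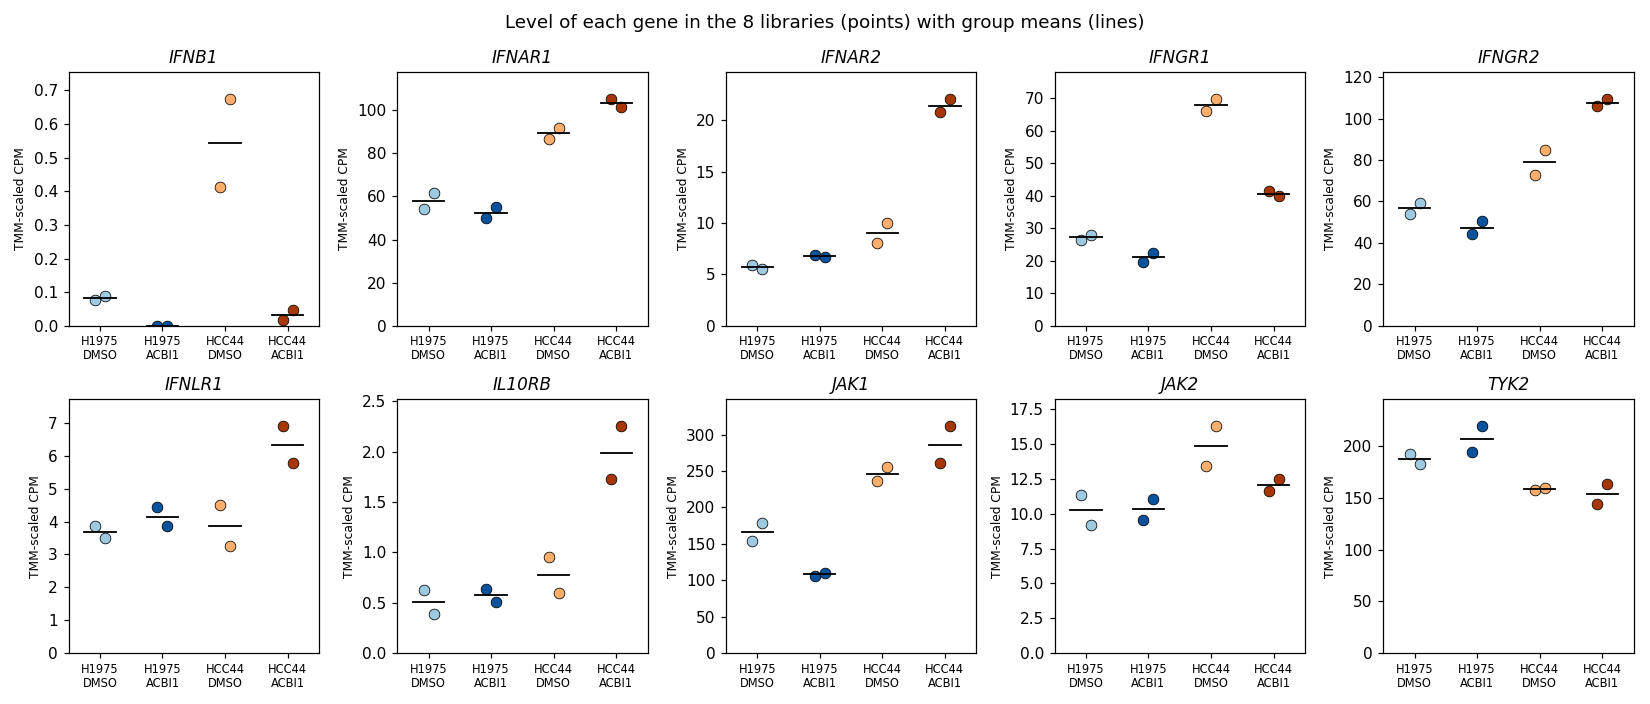
Each panel plots 1 gene, with TMM-scaled CPM on a linear axis from 0, points for the 8 libraries and lines for the 4 group means. IFNB1 is at or near 0 in the ACBI1 groups, JAK1 is lower with ACBI1 in H1975 alone by its means, and IFNAR2 and IL10RB stand highest in HCC44 ACBI1.

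IFNB1, the ligand, was scarce in every library. H1975 DMSO held 5 and 6 reads in replicates 1 and 2, and H1975 ACBI1 held 0 and 0. HCC44 DMSO held 26 and 43 reads, and HCC44 ACBI1 held 1 and 3. In both lines the DMSO and ACBI1 libraries did not overlap, and HCC44 DMSO stood above all other libraries. Summed over replicates, H1975 DMSO held 11 reads and H1975 ACBI1 0. With a floor of 3 counts in place of the 0, the DMSO to ACBI1 ratio was 4.05. The exact 95% interval from the counts themselves started at 2.77 and had no upper limit. In HCC44, 69 reads against 4 gave a DMSO to ACBI1 ratio of 17.2, with an exact 95% interval of 6.41 to 64.8 that covers counting error only. IFNB1 was called lower in H1975 (adjusted p = 0.0147) and in HCC44 (adjusted p = 0.000956) in edgeR's quasi-likelihood test. It entered that test only through HCC44 DMSO, the group where it was high. The HCC44 p-value is therefore not independent of the filter, and the H1975 one exists only because of the other line. With the 4 H1975 libraries alone IFNB1 did not pass the filter and was not tested. The H1975 call was lost without ACBI1 replicate 1 and without ACBI1 replicate 2, where the ratios with the floor of 3 counts were 1.96 and 2.09. Without HCC44 ACBI1 replicate 2 the HCC44 ratio was 34.0.

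IFNB1 was also the gene of the 10 with the widest gap between the lines under DMSO. HCC44 DMSO held 69 reads and H1975 DMSO 11, a ratio of 6.53 with an exact 95% interval of 3.43 to 13.7 (edgeR quasi-likelihood test, adjusted p = 0.00126). That p-value too is not independent of the filter, which IFNB1 passed through HCC44 DMSO. The IFNB1 gap ran the opposite way to that of the interferon-stimulated genes described below, which were lower in HCC44 DMSO. Whether IFNB1 responded differently to ACBI1 in the lines could not be shown, as the difference had an adjusted p of 0.484 (edgeR quasi-likelihood test) and the H1975 value rests on 11 reads.

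The type I receptor chains behaved unlike each other in HCC44. IFNAR2, the chain that binds JAK1, was at 8.11 and 10.0 CPM with DMSO in HCC44 and at 20.8 and 22.1 CPM with ACBI1. It was at 5.87 and 5.52 CPM with DMSO in H1975 and at 6.88 and 6.74 CPM with ACBI1. Both ACBI1 libraries lay above both DMSO libraries in each line, by a wide margin in HCC44 and a narrow one in H1975. IFNAR2 rose 2.36-fold in HCC44 (log2 fold change 1.24 ± 0.15 SE, edgeR quasi-likelihood adjusted p = 0.000133). In H1975 its log2 fold change was 0.26 ± 0.15 and was not called (adjusted p = 0.229), and the difference between the lines was called at 0.98 ± 0.21 (adjusted p = 0.0101). With library totals in place of TMM factors IFNAR2 was called higher in H1975 too, at 0.46.

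IFNAR1, the chain that binds TYK2, had no call in either line. It was at 54.4 and 61.8 CPM with DMSO in H1975 and at 49.8 and 55.3 CPM with ACBI1. In HCC44 it was at 86.8 and 91.5 CPM with DMSO and at 105 and 102 CPM with ACBI1. The H1975 groups overlapped and the HCC44 groups did not. The log2 fold changes were -0.14 ± 0.10 in H1975 and 0.21 ± 0.10 in HCC44, with adjusted p-values of 0.291 and 0.113 (edgeR quasi-likelihood test). IFNAR1 was called higher in HCC44 with library totals (0.31), with upper-quartile factors (0.27) and in the fit blocked on replicate number (0.21). The H1975 value was 0.058 with library totals and 0.00071 without H1975 DMSO replicate 2.

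The 2 chains of the interferon gamma receptor moved in opposite directions in HCC44. IFNGR1, which binds the ligand and carries JAK1, was at 66.1 and 69.7 CPM with DMSO in HCC44 and at 41.4 and 39.7 CPM with ACBI1. IFNGR2, which carries JAK2, was at 72.9 and 84.9 CPM with DMSO in HCC44 and at 106 and 109 CPM with ACBI1. The groups of neither gene overlapped in HCC44. IFNGR1 fell by 0.74 on the log2 scale (SE 0.10, edgeR quasi-likelihood adjusted p = 0.000324), and IFNGR2 rose by 0.45 (SE 0.11, adjusted p = 0.00732). The IFNGR2 call was lost without HCC44 DMSO replicate 1 (0.34, adjusted p = 0.0915).

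In H1975 both interferon gamma receptor chains had lower means with ACBI1, and only that of IFNGR1 was called. IFNGR1 was at 26.3 and 28.0 CPM with DMSO in H1975 and at 19.8 and 22.5 CPM with ACBI1. IFNGR2 was at 53.8 and 59.4 CPM with DMSO in H1975 and at 44.5 and 50.4 CPM with ACBI1. The groups of neither gene overlapped. IFNGR1 fell by 0.36 (SE 0.10, edgeR quasi-likelihood adjusted p = 0.0229), and IFNGR2 changed by -0.26 ± 0.11 (adjusted p = 0.0919). The H1975 call of IFNGR1 was lost with library totals (-0.16), with DESeq2 (-0.33), and without any single one of the 4 H1975 libraries (-0.44 to -0.24). The difference between the lines was called for IFNGR2 (0.70 ± 0.15, adjusted p = 0.00922) and not for IFNGR1 (-0.38 ± 0.15, adjusted p = 0.0959). The IFNGR2 difference stood just past the threshold without H1975 ACBI1 replicate 1 (adjusted p = 0.0510) and without HCC44 DMSO replicate 1 (adjusted p = 0.0504), where it was not called.

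Both chains of the lambda interferon receptor rose in HCC44. IFNLR1, the chain specific to lambda interferons, was at 4.51 and 3.24 CPM with DMSO in HCC44 and at 6.90 and 5.77 CPM with ACBI1. IL10RB, which also serves the receptors of interleukins such as IL-10 and IL-22, was at 0.954 and 0.596 CPM with DMSO in HCC44 and at 1.73 and 2.25 CPM with ACBI1. The HCC44 groups of neither gene overlapped. The log2 fold changes were 0.71 ± 0.21 for IFNLR1 (adjusted p = 0.0243) and 1.36 ± 0.33 for IL10RB (adjusted p = 0.00878) in edgeR's quasi-likelihood test. A single library ended each call: leaving out DMSO replicate 2 gave 0.49 for IFNLR1 and 1.06 for IL10RB, leaving out ACBI1 replicate 1 gave 0.58 for IFNLR1, and leaving out ACBI1 replicate 2 gave 1.16 for IL10RB, none of which was called.

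In H1975 neither lambda receptor chain was called. IFNLR1 was at 3.87 and 3.49 CPM with DMSO and at 4.43 and 3.86 CPM with ACBI1. IL10RB was at 0.621 and 0.385 CPM with DMSO and at 0.638 and 0.509 CPM with ACBI1. The groups overlapped for both genes. Their log2 fold changes were 0.17 ± 0.21 and 0.19 ± 0.37. No difference between the responses of the lines was called for IFNLR1 (0.54 ± 0.30, edgeR quasi-likelihood adjusted p = 0.254) or IL10RB (1.16 ± 0.49, adjusted p = 0.129), so a rise particular to HCC44 was not shown for this receptor.

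IFNAR2, IL10RB, IFNAR1 and IFNGR2 are neighbours on chromosome 21, all on the plus strand, within the 249 kb of chr21:33229901-33479348 in GENCODE release 29 (GRCh38). Of the 4, all but IFNAR1 rose in HCC44. Overlaps there limit how reads can be assigned. In that annotation 83.2% of the exonic bases of IFNAR2 also lie in exons of another gene. A readthrough gene on the same strand covers 44.2%, and IL10RB-DT on the opposite strand covers 39.1%. For IL10RB the share is 38.1%, all from the readthrough gene. For IFNGR2 it is 12.8%, from TMEM50B on the opposite strand. The overlap setting of the counting, its strand setting and its annotation are not given in the sources used here, so the levels of IFNAR2 and IL10RB are uncertain. The deposited counts have a row of their own for the readthrough gene, IFNAR2-IL10RB. It had 4 reads in H1975 DMSO, 11 in H1975 ACBI1, 33 in HCC44 DMSO and 73 in HCC44 ACBI1, and was called in neither line (edgeR quasi-likelihood adjusted p = 0.281 and 0.0739). When its reads were added to IFNAR2 and to IL10RB, an alternative chosen after seeing the data, both genes kept their calls in HCC44 and 6 of the 10 genes were called there.

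Among the kinases only JAK1 changed past the threshold, and only in H1975. JAK1, which serves all 3 receptors, was at 154 and 179 CPM with DMSO in H1975 and at 106 and 110 CPM with ACBI1. In HCC44 it was at 236 and 256 CPM with DMSO and at 261 and 311 CPM with ACBI1. The groups overlapped in neither line, and the ACBI1 libraries were the lower ones in H1975 and the higher ones in HCC44. JAK1 fell 1.54-fold in H1975 (log2 fold change -0.62 ± 0.11, edgeR quasi-likelihood adjusted p = 0.00178), and this call held under all 18 alternatives run. The HCC44 value of 0.22 ± 0.11 was not called (adjusted p = 0.142), although it was with library totals (0.31) and without HCC44 ACBI1 replicate 1 (0.34). The difference between the lines was called at 0.84 ± 0.15 (adjusted p = 0.00434) and under all 17 alternatives run.

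TYK2 and JAK2 were called in neither line. With DMSO, TYK2 was at 192 and 183 CPM in H1975 and at 157 and 160 CPM in HCC44; with ACBI1 it was at 195 and 219 CPM and at 145 and 164 CPM. With DMSO, JAK2 was at 11.4 and 9.22 CPM in H1975 and at 13.5 and 16.3 CPM in HCC44; with ACBI1 it was at 9.56 and 11.1 CPM and at 11.7 and 12.5 CPM. The TYK2 groups overlapped in HCC44 and the JAK2 groups in H1975. TYK2 had log2 fold changes of 0.14 ± 0.09 in H1975 and -0.04 ± 0.09 in HCC44, and JAK2 of 0.0036 ± 0.16 and -0.30 ± 0.16. With library totals TYK2 was called higher in H1975, at 0.35.

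**Figure D2:**
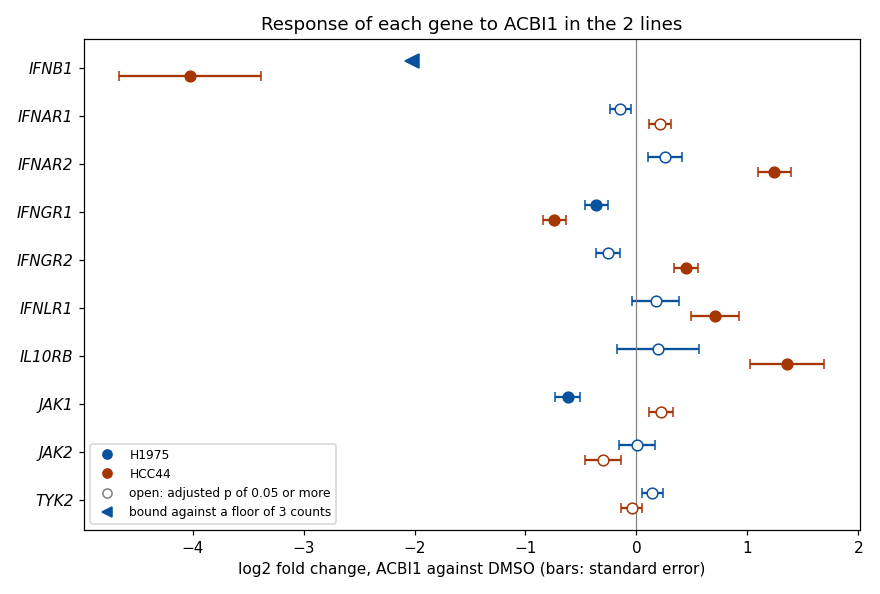
The log2 fold change of ACBI1 against DMSO is plotted for each gene and line, with bars for the standard error, filled points for called genes and open points for the others. The triangle, labelled a bound, marks the H1975 ratio of IFNB1 with a floor of 3 counts in place of 0. JAK1 and IFNGR2 lie on opposite sides of 0 in the lines, and IFNGR1 and IFNB1 lie below 0 in both.

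The lines differed in these genes before ACBI1 as well. Under DMSO 8 of the 10 were called between the lines, 7 of them higher in HCC44. The background over all genes was 67.9% called, 31.6% as higher and 36.4% as lower. IFNB1 was 1 of the 7, and it passed the filter only through HCC44 DMSO, so its call is not independent of the filter. The log2 difference, HCC44 minus H1975, was 1.32 ± 0.10 for IFNGR1, 0.67 ± 0.15 for IFNAR2, 0.62 ± 0.10 for IFNAR1, 0.56 ± 0.11 for JAK1, 0.53 ± 0.16 for JAK2 and 0.48 ± 0.11 for IFNGR2. TYK2 was the gene called lower in HCC44, at -0.24 ± 0.09 (edgeR quasi-likelihood adjusted p = 0.0418), a call that was lost in 8 of 18 alternatives. The JAK2 call was lost without H1975 DMSO replicate 2 (0.44) and without HCC44 DMSO replicate 2 (0.38). IFNLR1 (0.08 ± 0.22) and IL10RB (0.62 ± 0.36) were not called, and IL10RB was called with the readthrough reads added (0.96). Each line stands for itself here, and no wider class of tumour was sampled.

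Levels of different genes were compared as CPM per kb of exon, with exon lengths from GENCODE release 29. In H1975 DMSO, TYK2 (27.7 ± 0.99 CPM per kb) and JAK1 (26.3 ± 2.8) stood first with a gap smaller than the sum of their SDs, the measure of spread used here, followed by IFNGR2 (19.1 ± 1.3), IFNAR1 (9.22 ± 0.83) and IFNGR1 (8.28 ± 0.35). The difference between IFNAR1 and IFNGR1 was within their spread. JAK2 (1.67 ± 0.25), IFNAR2 (1.23 ± 0.054), IFNLR1 (0.747 ± 0.054), IL10RB (0.111 ± 0.037) and IFNB1 (0.0969 ± 0.0091) followed, the last 2 within their spread of each other. With ACBI1, TYK2 was at 30.6 ± 2.5 and JAK1 at 17.1 ± 0.41 CPM per kb in H1975, a gap larger than that sum.

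In HCC44 DMSO, JAK1 stood first at 38.9 ± 2.2 CPM per kb. IFNGR2 (26.7 ± 2.9), TYK2 (23.4 ± 0.27) and IFNGR1 (20.7 ± 0.77) followed, then IFNAR1 (14.2 ± 0.53). JAK2 (2.41 ± 0.32), IFNAR2 (1.96 ± 0.29), IFNLR1 (0.788 ± 0.18), IFNB1 (0.633 ± 0.21) and IL10RB (0.170 ± 0.056) were lowest. JAK2 and IFNAR2 were within their spread of each other, as were IFNLR1 and IFNB1. With ACBI1, IFNAR2 reached 4.64 ± 0.20 and IFNGR1 fell to 12.4 ± 0.36 CPM per kb. Per kb of exon shared with no other gene, IFNAR2 stood at 7.37 ± 0.32 CPM with DMSO in H1975 and at 11.7 ± 1.7 CPM with DMSO in HCC44, against 9.22 and 14.2 for IFNAR1, so the rank of IFNAR2 depends on how shared exons were counted.

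**Figure D3:**
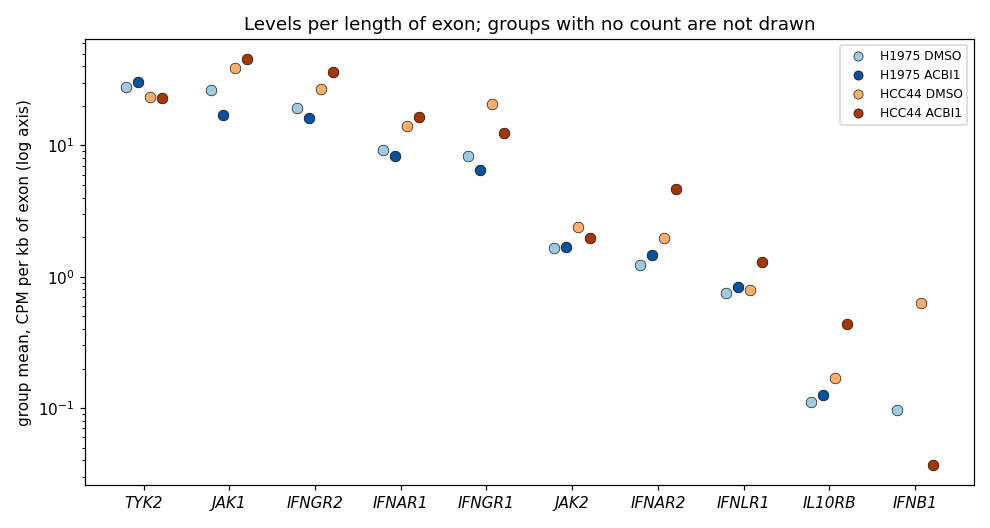
Group means in CPM per kb of exon are drawn on a log axis for the 10 genes, ordered by their level in H1975 DMSO, with a colour for each of the 4 groups. TYK2, JAK1 and IFNGR2 lie above 10 CPM per kb in every group, IFNB1 and IL10RB lie below 1, and IFNB1 is not drawn for H1975 ACBI1, where it had no count.

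Called changes in genes downstream of the kinases were mostly decreases in H1975. In HCC44 those of the interferon-stimulated genes ran both ways, while those of the STAT genes and of the interferon gamma response markers were all decreases. Every count of calls with ACBI1 in a list below is to be read against the shares over all tested genes. These were 16.7% called lower and 14.6% higher in H1975, and 17.4% lower and 17.5% higher in HCC44. Among the STAT proteins and IRF9, the transcription factors that carry the signal, 5 of 8 fell and 1 rose in H1975. In HCC44 2 of 8 fell and 0 rose, where 17.4% of all genes were called lower and 34.9% in either direction. STAT2, a subunit of the factor ISGF3, fell from 139 ± 29 to 45.0 ± 7.8 CPM in H1975 (edgeR quasi-likelihood log2 fold change -1.63 ± 0.17) and from 73.0 ± 0.95 to 43.5 ± 7.6 CPM in HCC44 (-0.75 ± 0.17). IRF9, its DNA-binding subunit, fell from 9.26 ± 4.3 to 3.99 ± 0.92 CPM in H1975 and was not called in HCC44 (-0.38 ± 0.32). STAT6, which serves the interleukin-4 receptor, fell in H1975 (-0.90 ± 0.11), and STAT4 fell in HCC44 (-1.13 ± 0.28). The difference between the lines was called for STAT2 (0.88 ± 0.24, adjusted p = 0.0329) and STAT6 (0.76 ± 0.16, adjusted p = 0.00851), and, with the opposite sign, for STAT4 (-1.36 ± 0.40, adjusted p = 0.0365), and not for IRF9 (adjusted p = 0.230), in edgeR's quasi-likelihood test. Over the 8 genes, 3 such differences were called as more positive in HCC44 and 2 as more negative. The shares over all tested genes were 10.2% and 8.4%.

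Interferon-stimulated genes, the usual readout of type I and lambda receptors, fell for 24 of 25 tested genes in H1975, where their median change was -1.70 on the log2 scale. In HCC44 9 of the 25 fell and 6 rose, with a median of -0.15. MX2 fell from 45.3 ± 7.7 to 1.98 ± 0.34 CPM, XAF1 from 150 ± 4.3 to 8.99 ± 1.5 CPM, and IFI44L (-3.33 ± 0.16) and OAS2 (-3.25 ± 0.25) also fell in H1975. In HCC44 MX2 fell too, from 6.27 to 1.09 CPM (-2.52 ± 0.22), as did XAF1, from 5.33 to 0.911 CPM (-2.55 ± 0.18), and IFI44L (-0.69 ± 0.15), while OAS2 was not called (0.02 ± 0.29). The 6 that rose in HCC44, named after their values were seen, were OAS3 (1.21 ± 0.16), IFI35 (1.06 ± 0.10), IFIT1, OAS1, IFI44 and IFI6. Of the 25, 18 had a called difference between the lines, all more positive in HCC44, against a background of 10.2% in that direction and 8.4% in the other. All 25 were called lower in HCC44 DMSO than in H1975 DMSO, with a median difference of -3.51. Over all tested genes 36.4% were called lower in that comparison and 31.6% higher. Of the 10 upstream genes 7 were called higher there, among them IFNB1, which passed the filter only through HCC44 DMSO. Markers of the interferon gamma response fell for 9 of 13 tested genes in each line, with medians of -1.28 in H1975 and -0.75 in HCC44. The gene of interferon gamma itself, IFNG, had no count in any library, and whether these falls reflect its signalling was not tested. One of the 13, GBP4, named after its values were seen, rose in H1975 from 0.144 to 0.452 CPM (1.64 ± 0.46, edgeR quasi-likelihood adjusted p = 0.0194). CIITA, the activator of MHC class II genes, fell by 1.31 (SE 0.15) in H1975 and by 2.12 (SE 0.16) in HCC44. The guanylate-binding protein gene GBP3 fell by 1.91 and 1.72, GBP5 by 0.95 and 1.47, and the class II gene HLA-DRA by 2.11 and 1.52, in the same order.

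Of 13 tested factors that act on the IFNB1 gene, 6 fell in H1975, and 4 fell and 1 rose in HCC44, the latter a share near that of all genes called. IRF7, an interferon regulatory factor, fell from 79.0 ± 4.5 to 38.5 ± 0.87 CPM in H1975 and from 25.3 ± 0.84 to 16.4 ± 2.5 CPM in HCC44. IKBKE, a kinase that acts on these factors, fell by 0.91 in H1975 and by 1.04 in HCC44. JUN, an AP-1 subunit, fell in HCC44 (-1.11 ± 0.27, edgeR quasi-likelihood adjusted p = 0.0173) and was not called in H1975 (-0.59 ± 0.27, adjusted p = 0.146). IRF1 fell in H1975 (-0.91 ± 0.11) and was not called in HCC44 (-0.24 ± 0.10).

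Of 14 tested inhibitors of the pathway, 3 fell and 1 rose in H1975, and 4 fell and 2 rose in HCC44, with medians of -0.12 and -0.24. The shares called were near those over all genes, 31.3% in H1975 and 34.9% in HCC44. CISH, an inhibitor of cytokine receptors induced by STAT5, fell in both lines (-1.12 ± 0.22 and -1.05 ± 0.25). SOCS1, an inhibitor of the JAK kinases, fell in HCC44 from 2.65 ± 0.24 to 1.09 ± 0.39 CPM, and PTPN1, a phosphatase that acts on JAK2 and TYK2, fell there by 0.65 (SE 0.09). USP18, which blocks JAK1 at IFNAR2, rose in HCC44 from 10.4 ± 0.55 to 16.4 ± 0.37 CPM and was at 34.8 ± 0.40 and 33.8 ± 2.7 CPM in H1975, with a called difference of 0.70 ± 0.16 (edgeR quasi-likelihood adjusted p = 0.0126).

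Other receptors that share IL10RB or a JAK kinase, with JAK3, gave 5 falls and 1 rise among 12 tested genes in H1975, and 4 falls and 4 rises in HCC44. IL22RA1, the partner of IL10RB in the IL-22 receptor, rose from 0.205 ± 0.020 to 1.74 ± 0.11 CPM in HCC44 and from 1.75 ± 0.45 to 3.04 ± 0.44 CPM in H1975. The difference between these responses was called (2.28 ± 0.42, edgeR quasi-likelihood adjusted p = 0.00437). JAK3, the kinase of the common gamma chain, rose in HCC44 from 3.98 ± 0.91 to 11.1 ± 3.4 CPM. IL20RB, a chain of receptors for IL-20 family cytokines, fell in H1975 (-2.22 ± 0.24) and HCC44 (-1.69 ± 0.21), and IL6R, the IL-6 receptor, fell in HCC44 (-1.84 ± 0.18).

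**Figure D4:**
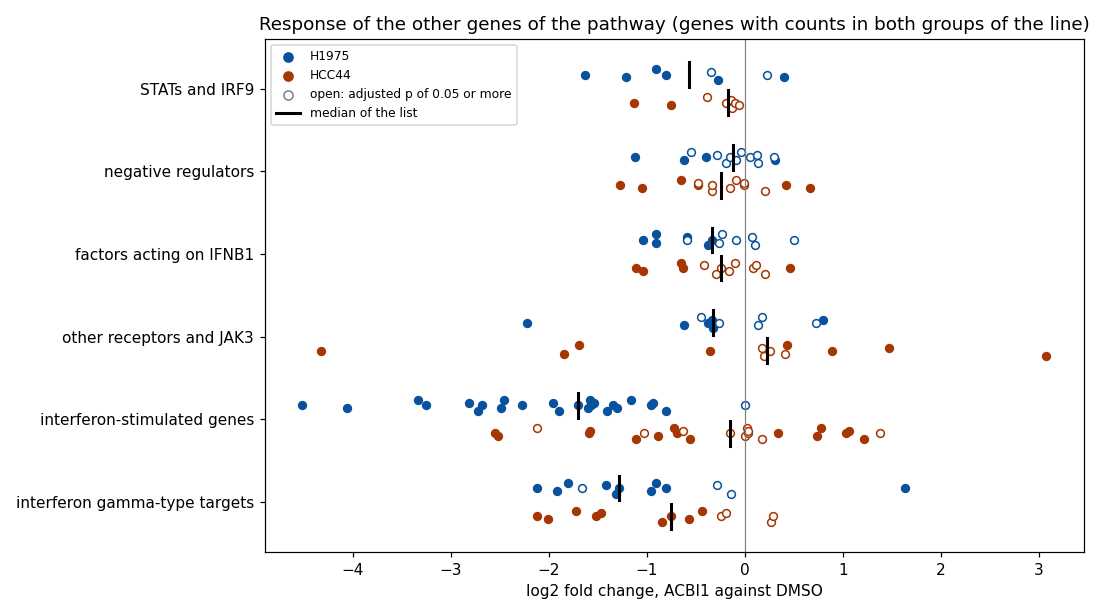
Log2 fold changes of ACBI1 against DMSO are plotted for 6 lists of genes in both lines, with 1 point per gene that had counts in both groups of the line, open points for genes not called and black bars for medians over the plotted genes. Interferon-stimulated genes sit mostly between -4 and -1 in H1975 and on both sides of 0 in HCC44.

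Profiles over the 8 libraries were compared for the gene with the largest called change in each line among those that averaged 1 CPM or more in a group of that line. IL10RB, taken for HCC44, reached 1 CPM in HCC44 ACBI1 alone, the group where it is high. The measure was the Euclidean distance over the 8 libraries between log2 CPM profiles, each centred on the gene's own mean. Neighbours were sought among the 14777 tested genes whose mean reached 1 CPM. JAK1, whose own log2 CPM spanned 1.55, lay nearest to MMD (distance 0.246), ETV6 (0.255) and ING4 (0.259). Like JAK1, ETV6 had lower means with ACBI1 in H1975 (32.3 to 21.6 CPM) and higher ones in HCC44 (44.6 to 60.9 CPM). IL10RB, which spanned 2.46, lay nearest to ID1 (0.477), to a gene named in the files only as ENSG00000272468 (0.585) and to RASL11A (0.692). ID1 was at 79.9 CPM in HCC44 DMSO and 191 CPM in HCC44 ACBI1.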

How the data were processed

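RNA of 8 libraries was counted per gene by the authors, who deposited 1 table of raw read counts per library. TopHat2 2.1.1, HTSeq 0.11.0 and the build hg38 are named per the submitters' processing notes, and the annotation, strand and overlap settings are not given in the sources used here. The 5 summary rows (14.3 to 15.8% of each table) were left out. Counts were analysed with edgeR 4.0.16 in R 4.3.3: filterByExpr, TMM factors, a mean per group over all 8 libraries (4 residual degrees of freedom) and the robust quasi-likelihood test. Standard errors are the log2 fold change divided by the square root of F. Alternatives included DESeq2 1.42.0. Exact intervals of count ratios cover counting error only. The 10 genes and the gene lists were chosen with earlier results of these data known. All 10 genes are named. Per list, up to 4 called genes with the largest change in either line and a group mean of at least 1 CPM are named, and for 1 gene per line the 3 nearest profiles. Replicate libraries were not copies of each other (chi-square per degree of freedom 22.7 to 45.9). On simulated counts, genes changed 2-fold were recovered at 53.8% in H1975 (20636 genes tested) and 65.2% in HCC44 (20812 genes tested). Genes changed 1.5-fold were recovered at only 28.1% and 26.2%. Of the calls 12.4% and 13.0% were false, above the nominal level. At each size of change 64 to 66 tested genes were changed, far fewer than were called in the data.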

Additional observations from a re-analysis of the deposited data

Results flagged for a closer look

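By a test of the difference itself, H1975 and HCC44 responded unequally to ACBI1 for 3 of the 10 genes, against 18.6% of all tested genes (edgeR quasi-likelihood test, adjusted p under 0.05). The log2 difference, HCC44 minus H1975, was 0.98 for IFNAR2, 0.70 for IFNGR2 and 0.84 for JAK1. The group means of JAK1 were 166 and 108 CPM in H1975 DMSO and ACBI1 and 246 and 286 CPM in HCC44. Those of IFNGR2 were 56.6 and 47.4 CPM in H1975 and 78.9 and 108 CPM in HCC44. IFNAR2 had higher means with ACBI1 in both lines, from 5.69 to 6.81 CPM in H1975 and from 9.06 to 21.4 CPM in HCC44.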

How the results depend on the processing

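With 2 libraries per group and few reads for IFNB1 and IL10RB, single libraries weighed on several results. Of 704 values of the 10 genes under the alternatives, 656 kept their direction and their side of the threshold, 25 lost a call, 13 gained one and 10 changed sign. None of the sign changes was in a value called under any setting. They were IFNAR1 in H1975 (0.058 with library totals, -0.24 to 0.00071 with each library left out), IL10RB in H1975 (-0.063 to 0.57 with each left out), JAK2 in H1975 (-0.090 to 0.16 likewise), TYK2 in HCC44 (0.0098 with upper-quartile factors, 0.049 with library totals, -0.13 to 0.049 with each left out) and the DMSO level of IFNLR1 (-0.038 with library totals, -0.18 to 0.29 with each left out). With library totals the log2 fold change of the median gene was higher by 0.19 in H1975 and by 0.087 in HCC44. With each library left out, 1 to 3 of the 10 genes were called in H1975, 4 to 6 in HCC44 and 2 to 3 for the difference. Over all genes the calls then ranged from 3690 to 7161 for H1975, from 4945 to 7342 for HCC44 and from 2341 to 4134 for the difference. The IFNB1 ratio in H1975, with the floor of 3 counts, then ranged from 1.96 to 4.32. The measured IFNB1 ratio in HCC44 ranged from 11.5 to 34.0. With the replicate number as a block, 5 of the 10 genes had a called difference, IFNAR1 (0.36) and IFNGR1 (-0.38) besides the 3 named, and 6358 genes in all. IFNGR2 was then called lower in H1975 (-0.26), and IFNAR1 (0.21) and JAK1 (0.22) higher in HCC44. Deviations of same-numbered libraries correlated at 0.374 in H1975 and 0.109 in HCC44, and no batch shared by a number is named in the labels, so the numbers are not taken as pairs. The cause of these shifts was not tested.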

Other observations

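Of 21 other interferon genes, IFNE, an epithelial type I interferon, alone passed the filter on low counts. IFNE had 42 and 16 reads in H1975 DMSO, 11 and 7 in H1975 ACBI1, 14 and 15 in HCC44 DMSO, and 32 and 38 in HCC44 ACBI1. It fell in H1975 (edgeR quasi-likelihood log2 fold change -1.83 ± 0.53, adjusted p = 0.0237). In HCC44 it had no call (1.27 ± 0.49, adjusted p = 0.0669), while the difference between the lines was called at 3.10. The lambda interferon genes IFNL1, IFNL2 and IFNL3 had reads in H1975 libraries and 0 in each of the 4 HCC44 libraries, where the lambda receptor chains rose. IFNL1 had 18 and 3 reads in H1975 DMSO and 6 and 4 in H1975 ACBI1. IFNL2 had 1 and 0 reads in H1975 DMSO and 7 and 5 in H1975 ACBI1, and IFNL3 had 2 and 0 and then 9 and 2. The IFNL1 groups overlapped, and its lower sum with ACBI1 rests on DMSO replicate 1, so no direction is read from it. IFNL2 and IFNL3 are near-identical copies, so the split of reads between them is uncertain, and none of the 3 genes was tested.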
